A study of Brassica napus with 3 samples.

Results

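The summits of H3K4me3 along pseudochromosome 4 of the Brassica rapa reference are described here for leaves of canola, in a control line and in PEG1, which was selected from that cultivar. A summit is the single base at which the signal of a called peak is highest. Every summit listed on that pseudochromosome was taken, which gave 2108 of the 27672 summits of the control list and 2469 of the 31464 summits of the PEG1 list, 4577 of 59136 in all.

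H3K4me3 is histone H3 trimethylated on lysine 4. In plants, as in animals and yeast, it sits on the first nucleosomes of transcribed genes and is placed there by methyltransferases of the trithorax group, so that along a chromosome its peaks follow the positions of transcribed genes. Plant chromosomes alternate between gene-rich chromatin and repeat-rich heterochromatin, the latter gathered mostly around the centromeres, and the mark is common in the first and rare in the second. Canola, Brassica napus, arose from a cross of B. rapa and B. oleracea, and B. rapa carries the relatives of its A subgenome.

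The series holds 3 libraries, and 2 of them are described here. Both came from leaf 4 of untreated plants 26 days old of the cultivar labelled L. spp. oleifera (Metzg) Sinsk. f. biennis, grown for 2 weeks on agar and 12 days in soil. One is H3K4me3 from the Control line, which the protocol also calls wild-type, and the other is H3K4me3 from the PEG1 selected epiline, taken from a selection for energy efficiency and drought tolerance. The chromatin was native: 1.5 g of powdered leaf gave nuclei that were cut with 30 U of micrococcal nuclease for 10 minutes, and 2.5 ug of antibody was used without crosslinking. How many plants went into each library is not stated in the labels. Values of the no-antibody library of the control line were not analysed here.

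There is 1 library per line. No difference between the lines has a replicate check, the lines could not be tested against each other, and p-values are not given. Intervals are 95% intervals and cover counting error only. Each summit carries a score, the −log10 of a significance value as the authors' peak caller gave it. The score depends on the depth of the library, which is unknown for both lines, so scores are read within a list. Reads of the C subgenome may also have supported summits on this reference, and this cannot be told apart from signal of the A subgenome in these lists. Genes were not assigned, because an annotation of this build was not used here. Positions are 1-based on BGI pseudochromosome version V1 of BR5307.

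Called summits of both lines ran along pseudochromosome 4 from near its start. The length of its sequence was not used, so how far it extends past the last summit is not given. The first summit lay at 4877 in the control and at 4884 in PEG1, and the last at 23825133 and 23825080. Over the 23.8 Mb between them the control had 88.5 summits per Mb (84.8 to 92.4) and PEG1 had 103.7 (99.6 to 107.8). These are low densities for this reference. Only pseudochromosome 11, with 53.03 summits per Mb in the control and 60.5 in PEG1, held fewer in either line. Pseudochromosome 3 held the most, 119.8 and 134.5. Pseudochromosome 1 was close, with 93.8 (90.3 to 97.3) and 105.6 (101.9 to 109.4), intervals that overlapped those of pseudochromosome 4. In PEG1 the intervals of pseudochromosomes 2 and 5 overlapped it too. Against all the others together, pseudochromosome 4 had 0.909 times their density in the control and 0.938 times in PEG1. Without pseudochromosome 11, which has no counterpart among the B. rapa chromosomes, the values were 0.855 and 0.884.

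On pseudochromosome 4 the PEG1 list was longer than the control list by 361 summits, a ratio of 1.17 (1.10 to 1.24). The ratio was higher than on each of the other 10 pseudochromosomes, where it ran from 1.12 to 1.15, but its interval covered that range. The median score on pseudochromosome 4 was 14.4 in the control and 17.2 in PEG1. For the control this is the median of its whole list. For PEG1 it was the lowest of the 11 pseudochromosomes, the others lying between 17.7 and 19.3.

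Called summits were unevenly spread, with dense and sparse stretches in turn. Runs of at least 3 neighbouring 500 kb windows on the same side of the median window were 1.5 to 3.5 Mb long. By this rule 1.5 Mb is the shortest length possible, and a random order of windows also gives some runs. The pseudochromosome was divided into 47 complete windows of 500 kb. In the control they held 19 to 68 summits, with a median of 42, and in PEG1 29 to 78, with a median of 50. The SD over windows was 11.8 in the control, where counting error alone would give 6.61, and 12.8 in PEG1, where it would give 7.16. The fullest window held 3.58 times as many summits as the emptiest in the control and 2.69 times as many in PEG1.

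**Figure D1:**
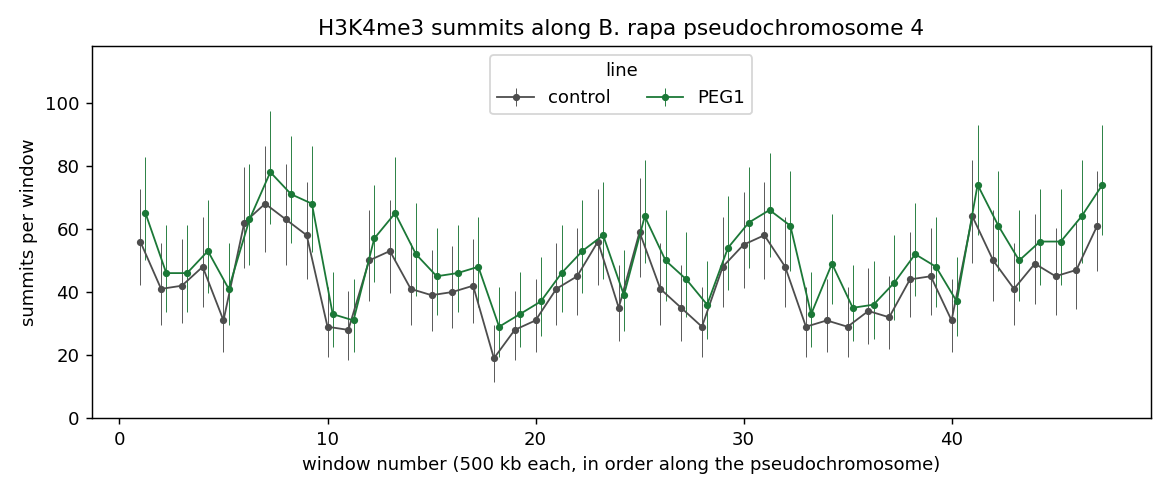
Summits per 500 kb window (vertical axis, number of summits) in the 47 complete windows in their order along pseudochromosome 4 (horizontal axis, window number). Points are counts of 1 library per line and bars their exact Poisson 95% intervals; both lines go through the same highs and lows, from 19 to 68 summits in the control and from 29 to 78 in PEG1.

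The densest stretches lay near the start and at the far end. The complete windows with the most summits of both lines together were those from 3000001 to 3500000, with 68 control and 78 PEG1 summits, and from 20000001 to 20500000, with 64 and 74. The window from 23000001 to 23500000 followed with 61 and 74, then that from 3500001 to 4000000 with 63 and 71 and that from 4000001 to 4500000 with 58 and 68. Of these 5 windows 3 adjoin each other and form the main block near the start. The incomplete window at the end, from 23500001 to the last summit at 23825133, was denser still up to that summit, with 57 control and 61 PEG1 summits, or 175.3 and 187.6 per Mb. It contains the fullest 100 kb of either line, from 23700001 to 23800000, with 24 control and 27 PEG1 summits.

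The longest sparse stretch lay between 7.0 and 10.5 Mb. Here 7 consecutive windows, from 7000001 to 10500000, were all below the median window, with 68.6 control and 81.1 PEG1 summits per Mb. Within it lay the emptiest window, from 8500001 to 9000000, with 19 control and 29 PEG1 summits, and the third emptiest, from 9000001 to 9500000, with 28 and 33. The other windows among the lowest 5 were those from 5000001 to 5500000 with 28 and 31 summits, from 4500001 to 5000000 with 29 and 33, and from 16000001 to 16500000 with 29 and 33. The dense block near the start thus gave way at 4.5 Mb, from one window to the next, to a sparse 1 Mb. A second long sparse stretch ran over 5 windows from 16000001 to 18500000, with 62.0 control and 78.4 PEG1 summits per Mb, and a shorter one over 3 windows from 12500001 to 14000000, with 70.0 and 86.7.

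The scores followed the density in no consistent way. The median score was 14.4 in the control and 17.2 in PEG1 from 7000001 to 10500000, and 16.1 and 17.3 from 16000001 to 18500000. In the dense block from 2500001 to 4500000, with 125.5 control and 140.0 PEG1 summits per Mb, the medians were 16.9 and 20.1, but in the dense block from 21500001 to 23500000 they were 13.6 and 15.3. Over the 47 windows the number of summits and the median score were hardly related, with a Spearman rho of 0.03 in the control and 0.06 in PEG1. The PEG1 rho depended on the window, with 0.22 in windows of 200 kb and -0.21 in windows of 1000 kb, and the control rho was 0.09 in both. Windows of one library share its depth and its peak calling, and the rho is a description.

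In stretches of 2 Mb the density had a low at 8 to 10 Mb and another at 16 to 18 Mb. It was 93.5 control and 105.0 PEG1 summits per Mb in the first 2 Mb, 112.0 and 126.5 from 2 to 4 Mb, and 82.5 and 94.5 from 4 to 6 Mb. After 86.5 and 104.0 from 6 to 8 Mb it reached its lowest values, 60.0 and 73.5, from 8 to 10 Mb. Then came 88.5 and 98.0, 82.0 and 97.0, and 104.5 and 121.5 in the stretches that begin at 10, 12 and 14 Mb. The next low was from 16 to 18 Mb, with 61.5 and 76.5, only slightly above the lowest stretch in each line. From there the density climbed to the end, with 76.0 and 90.0, 102.0 and 120.5, and 115.1 and 139.7 summits per Mb.

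The lines had almost the same profile. Spearman's rho of the window counts of both lines was 0.96 over the 47 windows, and Pearson's r was 0.96. The windows share their sequence, the mappability of their reads and the peak caller, so no p is given. PEG1 had more summits than the control in 47 of the 47 windows. In windows of 100 kb it had more in 170 of 238, the same number in 49 and fewer in 19.

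The share of PEG1 among the summits of both lines moved little along the pseudochromosome. Over the 46 windows with at least 50 summits of both lines its SD was 1.91 percentage points around 53.9%, below the 5.25 points that independent counts of this size would give. Most summits are common to both lines, so the counts are not independent. The highest shares were 61.3% (49.7 to 71.9) from 16500001 to 17000000, with 49 PEG1 and 31 control summits, 57.7% (47.9 to 67.0) from 22500001 to 23000000, with 64 and 47, and 57.3% (45.4 to 68.7) from 18000001 to 18500000, with 43 and 32. The lowest were 50.4% (41.3 to 59.5) from 2500001 to 3000000, with 63 and 62 summits, 50.9% (41.3 to 60.4) from 11000001 to 11500000, with 58 and 56, and 51.4% (39.2 to 63.6) from 17500001 to 18000000, with 36 and 34. All 6 intervals contain the share of the whole pseudochromosome. The 1 window left out, from 8500001 to 9000000 with 48 summits, had a PEG1 share of 60.4% (45.3 to 74.2), which would rank second, and 10 of its 29 PEG1 summits were unmatched.

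Neighbouring summits were typically a few kilobases apart. The median distance was 6864 bp in the control (6468 to 7310) and 5929 bp in PEG1 (5621 to 6301). These were longer in each line than on any other pseudochromosome but number 11. The medians of pseudochromosome 2, 6482 and 5639 bp, lay inside these intervals. The quartiles of the distances were 3118 and 14856 bp in the control and 2737 and 12428 bp in PEG1. Close neighbours were few: 128 control distances (6.07%) and 168 PEG1 distances (6.81%) were under 1 kb, and none was under 347 bp in the control or 334 bp in PEG1. Joining summits within 500 bp gave 2089 control and 2447 PEG1 regions, of which 19 and 22 held 2 summits and none held more. The joining distance is only a little longer than the shortest spacing in the lists, so few joins were possible.

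**Figure D2:**
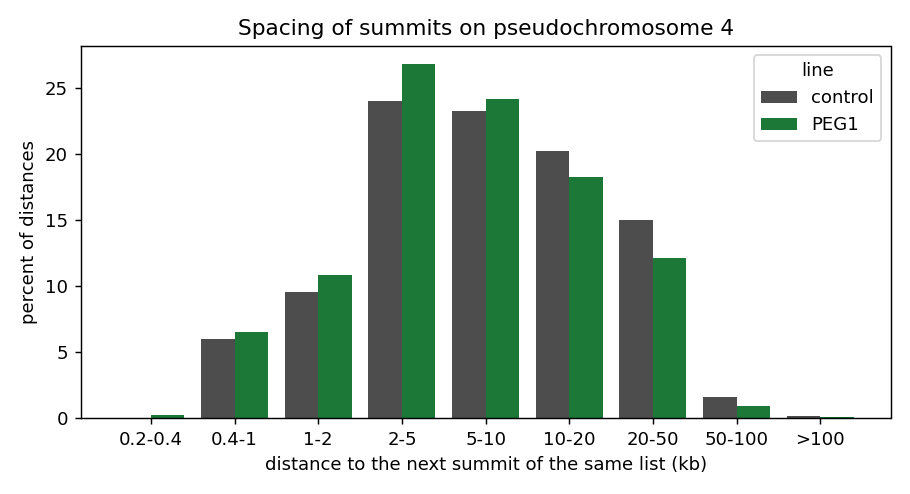
Distances between neighbouring summits of the same list on pseudochromosome 4, in classes of kilobases (horizontal axis), as a percent of all distances of the line (vertical axis; 2107 distances in the control, 2468 in PEG1). The class from 2 to 5 kb was the fullest in both lines, with 24.1% and 26.9%, and PEG1 had a smaller percent in every class over 10 kb.

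Summits with a very close neighbour had lower scores than the rest. Those with the nearest summit of their own list under 1 kb away had a median score of 9.13 in the control (243 summits) and 11.6 in PEG1 (318 summits). At 1 to 5 kb the medians were 15.3 and 18.5, and at 5 to 20 kb they were 15.3 and 18.2. The few summits with no neighbour within 20 kb, 79 in the control and 63 in PEG1, had medians of 11.4 and 14.5.

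Long distances between summits made up much of the pseudochromosome without any one of them dominating it. Distances over 20 kb were 16.8% of all in the control but covered 50.4% of the span from its first to its last summit. In PEG1 they were 13.1% of all and covered 43.4%. Distances over 50 kb numbered 37 in the control and 24 in PEG1, and those over 100 kb 3 and 2. The SD of the distances was 1.18 times their mean in the control and 1.17 times in PEG1. On the other pseudochromosomes that ratio ran from 1.17 to 1.80 in the control and from 1.19 to 1.86 in PEG1, so the spacing here was among the most even. The longest distance, of about 0.2 Mb in both lines, compares with 674756 bp in the control and 676160 bp in PEG1 on pseudochromosome 1.

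The longest stretches without a called summit largely coincided between the lines. The lines share their sequence and the mappability of their reads, and a stretch without a summit may still carry the mark. The longest ran from 8876397 to 9076342 in the control, 199945 bp, and from 8876843 to 9076497 in PEG1, 199654 bp. The second ran from 9385960 to 9529628 in the control, 143668 bp, and in PEG1 from 9386001 to 9501577, 115576 bp, because 1 PEG1 summit with a score of 6.28 stood inside it. The third of the control, from 8491225 to 8632549, 141324 bp, held 3 PEG1 summits, the best with a score of 11.6. All 3 fall in the sparse stretch between 7.0 and 10.5 Mb, and so do the only 100 kb windows without a summit: those from 8900001 and from 9400001 were empty in both lines, and that from 8500001 was empty in the control and held 2 PEG1 summits.

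The next longest distances were shorter than 100 kb. From 7101941 to 7193154 the control had no summit over 91213 bp, and PEG1 had none over 91177 bp between almost the same ends, 8 and 28 bp away. From 20630749 to 20724237, 93488 bp, the control was empty while PEG1 had 1 summit with a score of 5.89. The last of the 5 longest of PEG1, from 13382084 to 13472230 (90146 bp) and from 5169896 to 5246477 (76581 bp), held no control summit more than 500 bp from their ends. Of the 37 control distances over 50 kb, 24 held PEG1 summits more than 500 bp from their ends, 39 in all. Of the 24 PEG1 distances over 50 kb, 3 held control summits, 4 in all. The longer list has the shorter distances, so the number of each kind restates the list lengths in part.

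Most summits of the control had a PEG1 summit at nearly the same base. Within 150 bp of a PEG1 summit lay 1687 of the 2108 control summits, 80.03% (78.3 to 81.7), beside 79.1% of the control summits on all 11 pseudochromosomes. Seen from PEG1, 1687 of 2469 summits, 68.3% (66.5 to 70.1), had a control summit within 150 bp, beside 69.5% on all 11. All 1687 were pairs in which each summit was the nearest to the other, so the matching was one to one.

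Within the matched pairs the positions were close. The median offset was 27 bp, with quartiles of 12 and 57 bp, which is well inside the length of 1 nucleosome. In 38 pairs both summits fell on the same base, and in 383 they were at most 10 bp apart. The PEG1 summit lay at the higher coordinate in 847 pairs and at the lower in 802, with a median signed offset of 1 bp.

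**Figure D3:**
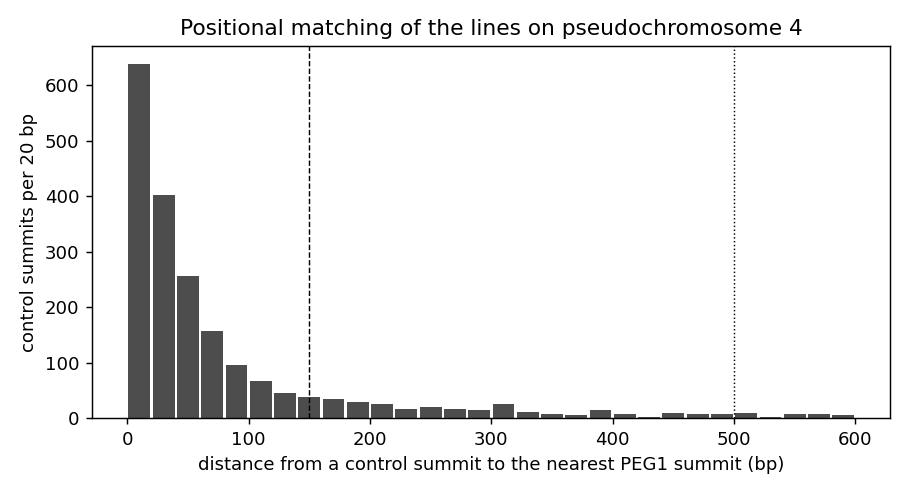
Distance from each control summit to the nearest PEG1 summit on pseudochromosome 4 (horizontal axis, bp) against the number of control summits per 20 bp (vertical axis). The dashed line marks the matching distance of 150 bp, within which 1687 summits lay, and the dotted line 500 bp, beyond which a summit was called unmatched.

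Beyond 150 bp the numbers declined with distance. From 151 to 200 bp lay 78 control summits, from 201 to 250 bp 53, from 251 to 300 bp 40, from 301 to 350 bp 41 and from 351 to 400 bp 24. In all, 272 control summits (12.9%) and 269 PEG1 summits (10.9%) had their nearest counterpart between 150 and 500 bp away. Their median scores were 9.77 and 15.3, against 16.1 and 23.3 for the matched summits. Over all 11 pseudochromosomes, 79.1% of control summits had a counterpart within 150 bp and 92.2% within 500 bp, beside 80.03 and 92.9% here. For PEG1 the shares were 69.5 and 81.3% over all 11, beside 68.3 and 79.2% here. The share between these distances was thus no larger here than over all 11 in either line.

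Matched summits with high scores lay closer to their counterparts than those with low scores. The summits of a line were ranked by score and split into 4 equally large classes. From the weakest class to the strongest, the median offset of matched summits was 40, 29, 31 and 20 bp in the control. For PEG1 it was 42, 33, 27 and 21 bp. The share matched within 150 bp was 62.2% (58.03 to 66.3) for the weakest class of the control and 90.3% (87.5 to 92.6) for its strongest. In PEG1 it was 30.4% (26.9 to 34.2) and 92.9% (90.6 to 94.6).

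The strongest summits of both lines stood at the same places, with orders that agreed in part. The best control summit, at 5868896 with a score of 76.6, had a PEG1 summit 4 bp away at 5868900, which ranked 5 in PEG1 with 85.96. The best PEG1 summit, at 10714109 with 108.4, had a control summit 31 bp away at 10714078, which ranked 5 in the control with 70.9. These were the only pairs among the 5 best of both lines. The next 3 of the control lay at 23205433 (score 74.1), 5942893 (73.2) and 13159453 (72.9), with PEG1 summits 193, 7 and 320 bp away that ranked 12, 9 and 29. The distances of 193 and 320 bp are beyond the matching distance of 150 bp. The next 3 of PEG1 lay at 3364819 (103.5), 17459188 (88.6) and 4440281 (86.2), with control summits 22, 40 and 2 bp away that ranked 7, 16 and 26.

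Score ranks of the matched pairs went together across the lines, with a Spearman rho of 0.84 over 1687 pairs. The pairs share their sequence and the peak caller, and this is a description. Of the 211 best-scored control summits, 131, or 62.1% (55.4 to 68.4), were paired with one of the 211 best-scored PEG1 summits.

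Stretches in which the lines matched summit for summit were short. The 1687 pairs fell into 577 blocks with no unpaired summit of either line inside, and the median block held 2 pairs. Any summit without a counterpart within 150 bp ends a block, also one with a counterpart within 500 bp. Block length therefore restates the matching distance and the matched shares in part. There were 18 blocks of 10 or more pairs, which held 210 pairs together. The 3 longest, singled out after their values were seen, lay from 4440279 to 4624480 in control coordinates with 15 pairs, from 6635275 to 6807815 with 15 pairs and from 3748225 to 3803431 with 14 pairs. In the first of these the summits of both lines were a median of 16 bp apart, and the control scores ran from 3.49 to 56.8.

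Summits with no counterpart within 500 bp were mostly found in PEG1. PEG1 had 513 of them, 20.8% of its summits (19.2 to 22.4), beside 18.7% on all 11 pseudochromosomes. The control had 149, 7.07% (6.05 to 8.24), beside 7.76%. Matching was one to one, so the difference between these counts follows from the list lengths almost by construction. With only the 2108 best-scored PEG1 summits, as many as the control has, 271 PEG1 and 262 control summits were unmatched, and equal lengths force these counts together in the same way. Neither pair of counts shows whether PEG1 has marked places that the control lacks.

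The PEG1 share of unmatched summits was higher on pseudochromosome 4 than on each of the other 10, where it ran from 17.3 to 19.4%. The intervals of most of them overlapped that of pseudochromosome 4, and the control share did not stand out in this way, with 2 of the other 10 below it and 8 above. The order also held for PEG1 summits over 2 kb from any control summit: 314, or 12.7% (11.5 to 14.1), on pseudochromosome 4 and 9.03 to 11.6% on the others. At 2 kb the intervals of pseudochromosomes 2 (10.1 to 12.3), 5 (10.4 to 13.0) and 11 (9.90 to 12.7) overlapped that of pseudochromosome 4. Those of the others lay below it. Weak summits were slightly more common here, with 26.6% of the PEG1 summits in the weakest of 4 equal score classes of the whole PEG1 list against 23.9 to 25.96% elsewhere. Weighted to the score classes of the whole list, the share was 19.9%, and the others ran from 17.8 to 19.5%. Within that class 57.4% (53.6 to 61.1) of the PEG1 summits were unmatched, against 51.3 to 54.8% on the others. In the next class it was 14.95%, with 5 of the other 10 below it, and in the following classes 5.53%, with 9 below, and 1.91%, with 7 below. In the strongest class of the whole control list 2.43% were unmatched, with all 10 others below, the highest at 2.36%. In its weaker classes, from the weakest up, 2, 3 and 1 of the others were below. No test of these differences was made, and pseudochromosome 4 is not called different from the rest.

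**Figure D4:**
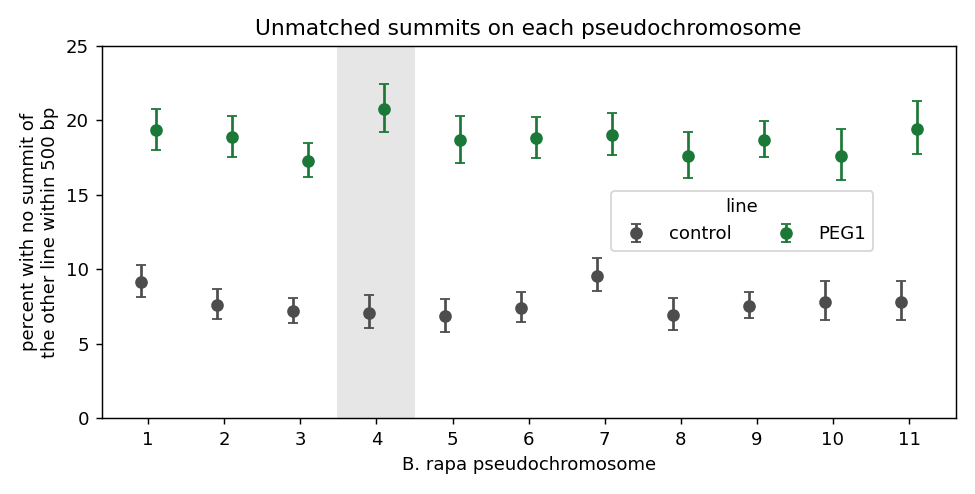
Percent of summits lacking a counterpart in the other line within 500 bp (vertical axis) on each of the 11 B. rapa pseudochromosomes (horizontal axis), with pseudochromosome 4 shaded. Points are 1 library per line and bars Wilson 95% intervals; PEG1 stood at 20.8% on pseudochromosome 4 and at 17.3 to 19.4% on the others.

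Unmatched summits were weak in both lines. Their median score was 5.50 in the control and 6.05 in PEG1, and 25 of the 149 and 47 of the 513 scored above the median of their line on this pseudochromosome. In the weakest class of PEG1, 59.1% (55.1 to 62.9) were unmatched, then 16.4, 5.67 and 1.94% in the following classes. In the control the shares were 18.2% (15.1 to 21.7), 5.31, 2.28 and 2.47%. No summit of the strongest class of either line was more than 2 kb from a summit of the other line.

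**Figure D5:**
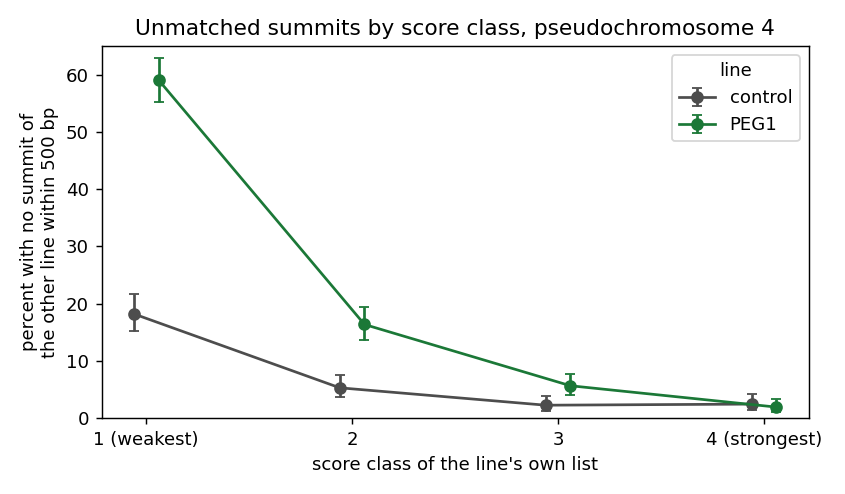
Percent of summits lacking a counterpart in the other line within 500 bp (vertical axis) in 4 equally large score classes of each line on pseudochromosome 4 (horizontal axis). Bars are Wilson 95% intervals; the PEG1 share went from 59.1% in the weakest class to 1.94% in the strongest, and the control share from 18.2 to 2.47%.

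The strong summits without a match had a counterpart just beyond the limit. The 5 best-scored unmatched summits of PEG1 lay at 19523867 (score 65.98), 5864521 (61.3), 17102809 (52.7), 11447710 (44.6) and 14490807 (39.5), and their nearest control summits were 704, 717, 599, 618 and 673 bp away. Those control summits scored 48.4, 63.3, 29.8, 24.7 and 24.4. The one scoring 63.3 was not itself unmatched, because the best unmatched control summit scored 48.4. A nearest summit at such a distance need not be the counterpart of the same peak, and this was not tested. The 5 best of the control lay at 19523163 (48.4), 13015357 (46.3), 4407448 (41.9), 21130382 (31.6) and 23701654 (31.6), with PEG1 summits 704, 520, 557, 576 and 794 bp away. The first of both lists is the same place, where the summits of the lines stood 704 bp apart and ranked 50 in PEG1 and 55 in the control.

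Summits found in 1 line at greater distances belonged mainly to PEG1. From 501 to 1000 bp away lay 101 unmatched PEG1 and 83 control summits. From 2001 to 5000 bp there were 137 and 16, from 5001 to 10000 bp 108 and 9, and from 10001 to 20000 bp 49 and 13. Over 20 kb there were 20 PEG1 summits and 2 control summits. The control was matched to the longer list, and the part of list length in these counts was not tested.

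Along the pseudochromosome the unmatched PEG1 summits had a larger share after 12 Mb than before it, with intervals that just overlapped. Before 12 Mb they were 228 of 1203, 18.95% (16.8 to 21.3), and after it 285 of 1266, 22.5% (20.3 to 24.9). The median PEG1 score was 18.5 before and 16.8 after that point. The control shares were 6.79% (5.42 to 8.48) and 7.34% (5.92 to 9.07). In stretches of 2 Mb the PEG1 share ran from 14.8%, from 10 to 12 Mb, to 24.2%, from 16 to 18 Mb.

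Sparse windows held a larger share of unmatched PEG1 summits than the rest, again with intervals that overlapped. In the 16 sparsest of the 47 windows 150 of 601 PEG1 summits, 24.96% (21.7 to 28.6), were unmatched. In the 16 middle windows it was 160 of 813, 19.7% (17.1 to 22.6), and in the 15 densest 196 of 994, 19.7% (17.4 to 22.3). Median PEG1 scores were 16.9, 17.0 and 16.9. The control shares were 7.76, 7.25 and 6.64%, with intervals that overlapped. The part of window density in these shares was not tested.

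Runs of unmatched neighbours were short. The 513 PEG1 summits formed 406 runs, 322 of them single summits, and 17 runs held 3 or more. The 149 control summits formed 138 runs, 127 of them single, and the other 11 were pairs. The longest PEG1 run held 5 summits from 20018420 to 20045936, with scores of 31.7, 10.9, 7.51, 6.05 and 20.97. The strongest of them, at 20018420, had a control summit 732 bp away with a score of 18.6, and the last had one 648 bp away with 5.21. The other 3 were 6248 to 13716 bp from any control summit. The run lies in a dense window, that from 20000001 to 20500000.

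The next PEG1 runs by length and then by summed score held 4 summits each. From 16590446 to 16608647 the scores were 6.28, 12.3, 8.15 and 3.52, and the nearest control summits stood at 16580947 before it and 16636321 after it, so all 4 lay in a control gap of 55374 bp. This run falls in the window with the highest PEG1 share, that from 16500001 to 17000000, in which 17 of 49 PEG1 summits and none of 31 control summits were unmatched. The other of these runs went from 19899312 to 19925862, with scores of 7.04, 19.9, 10.2 and 2.56, and its strongest summit had a control summit 509 bp away. The 3 control pairs with the highest summed scores lay at 19523163 and 19524798, at 18612615 and 18646957, and at 702128 and 704689. The control summit at 18612615, with a score of 8.43, was 23397 bp from any PEG1 summit.

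Near a close pair in one line the other line often, but not always, had at least 2 summits. Those summits need not be at most 1 kb apart themselves. PEG1 had 170 pairs of neighbours at most 1 kb apart. In 79 of these places the control also had at least 2 summits within 500 bp of the pair, in 71 it had 1, and in 20 it had none. The control had 129 such pairs, with at least 2 PEG1 summits in 76, 1 in 51 and none in 2. The PEG1 list is the longer, and the part of list length in these counts was not tested. Peak boundaries were not used here, so whether a pair in one line was called as a single peak in the other was not tested.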

How the data were processed

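Native H3K4me3 ChIP-seq of 2 leaf libraries, 1 per line, was available as lists of peak summits on B. rapa. Per the submitters' processing notes, the authors called peaks with MACS2 version 2.0. The deposited score is on the −log10 scale, and the sources do not say if it stands for p-values or q-values; no score was a whole number, and the lowest, 1.31 and 1.30, lay just above the −log10 of 0.05. Not given in the sources used here are the aligner, the treatment of reads that match both subgenomes, the use of a background library and read depth. The peak names of the lists have different prefixes, and whether both were called with the same settings is not given there either. The B. oleracea lists were not used here.

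Positions were converted to 1-based coordinates. A summit was matched when its nearest counterpart in the other line was at most 150 bp away, and unmatched when none lay within 500 bp. Densities were counted in windows of 500 kb from position 1. Shares carry Wilson intervals, counts exact Poisson intervals, window shares exact binomial intervals, ratios of counts exact conditional intervals and medians binomial order-statistic intervals, all at 95%. Named were the 5 fullest and 5 emptiest windows, the 5 longest distances, the 5 best-scored and 5 best-scored unmatched summits and the 3 longest unmatched runs of each line, the 3 highest and 3 lowest PEG1 shares and the fullest 100 kb. The pseudochromosome, distances and rules were chosen with earlier results of these data known. The matching code was checked on simulated lists. Their offsets were all inside the matching distance and their added summits all beyond 500 bp, so matching near these limits was not checked. Alternatives were other distances, windows and score limits, joined summits and equally long lists. Tools were SciPy 1.17.1, NumPy 2.4.6, matplotlib 3.10.9, pandas 2.3.3 and Python 3.11.15.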

Additional observations from a re-analysis of the deposited data

How the results depend on the processing

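No paired analysis was possible because each line has 1 library and no result comes from a test; no library could be left out. Of 47 alternative values 34 moved. A value moved when it left the interval of the reported value, passed 1.5 times for counts, or differed where no interval existed. Whether any changed direction was not assessed. Values are in the order control then PEG1. The percent matched was 56.5 and 48.3 within 50 bp, 88.1 and 75.2 within 300 bp, 92.9 and 79.2 within 500 bp, 96.9 and 83.3 within 1000 bp, and 76.1 in both with equally long lists, which forces them together. With summits at or above the median score of their whole list there were 1056 and 1190 summits, the PEG1 share matched was 72.4%, the median spacing was 14286 and 12358 bp, the fullest PEG1 window held 4.44 times the emptiest, and the SD of the PEG1 share was 2.28 points. With scores of at least 10 there were 1381 control summits and the ratio of the lines was 1.27; one score limit on both lists favours the list with the higher scores. Unmatched summits were 66 in the control within 1000 bp, 40 and 314 within 2000 bp, and 262 and 271 with equally long lists, which forces these together too. Windows of 200 kb gave fullest to emptiest ratios of 8.40 and 7.50, an SD of 2.22 points and a rho of 0.93, and windows of 1000 kb an SD of 1.47 points and a rho of 0.95. The median offset was 32 bp within 300 bp and 36 bp within 500 bp. Density relative to the other pseudochromosomes was 0.855 and 0.884 without pseudochromosome 11. The share weighted by score class, 19.9%, was added after seeing the data. Depth is unknown, so how many weak PEG1 summits a deeper control library would have matched cannot be read from these lists.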
